A study of Rattus norvegicus with 15 samples.

Results

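Potassium channel genes were examined in the ventral tegmental area, where the dopamine neurons of the midbrain reward system lie. The members were all genes that the array annotation names with a single symbol beginning with Kcn, apart from 1 gene left out by the rule, and each was read from the probe set with the highest mean over the 15 arrays. This gave 74 genes, with 122 probe sets between them, of 14217 genes with a single symbol on the array. RNA came from 7 rats given ethanol and 8 age-matched rats given water, 1 Affymetrix array per animal, and the series title names alcohol-preferring (P) rats and drinking with loss of control. The design text speaks instead of lines bred for high and low intake, and no label says which line a rat came from. The labels separate the rats by ethanol or water alone. For age, sex, litter, dose and the time since the last drink, the sources used here state no value.

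Potassium channels let potassium leave the cell and so pull the membrane back from firing. Voltage-gated (Kv) pores are tetramers of Kcna, Kcnb, Kcnc or Kcnd subunits, which silent partners (Kcng, Kcns, Kcnv) and auxiliary subunits (Kcnab, Kcnip, Kcne) modify. Inward rectifiers (Kcnj) and tandem-pore leak channels (Kcnk) hold the resting potential, and calcium-activated channels (Kcnma, Kcnn) follow spikes with a pause. In midbrain dopamine neurons A-type Kv4 channels and SK channels pace firing, and G-protein-gated Kcnj channels carry the inhibition set off by dopamine D2 and GABA-B receptors.

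Potassium channel transcripts that differed between ethanol and water rats were counted beside the same share over all tested probe sets. Of the 74 genes, 38 were bright enough to test, with a mean at or above the 40th percentile of the array (a log2 value of 6.94). One of these, Kcng2, rose at an adjusted p below 0.05 (limma with Benjamini-Hochberg adjustment over 18625 probe sets), where 0.929% of all tested probe sets were called. At an unadjusted p below 0.05 there were 3 of 38, Kcng2 and Kcnh6 higher and Kcnk1 lower, while 12.1% of all tested probe sets reached that level, 6.67% higher and 5.42% lower. The median difference was -0.012 log2 units over the 38 members and 0.0062 over all tested probe sets, and 17 members had higher and 21 lower means in ethanol rats, where 53.3% of all tested probe sets had higher means. In none of the 38 tested members were the 2 groups free of overlap, which held for 0.623% of tested probe sets. The same was true of the 36 untested members. With 38 members, counts this small do not set the family apart from those shares. The median within-group SD, pooled over the 2 groups, was 0.17 log2 units in the tested members, against 0.11 over all tested probe sets.

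**Figure D1:**
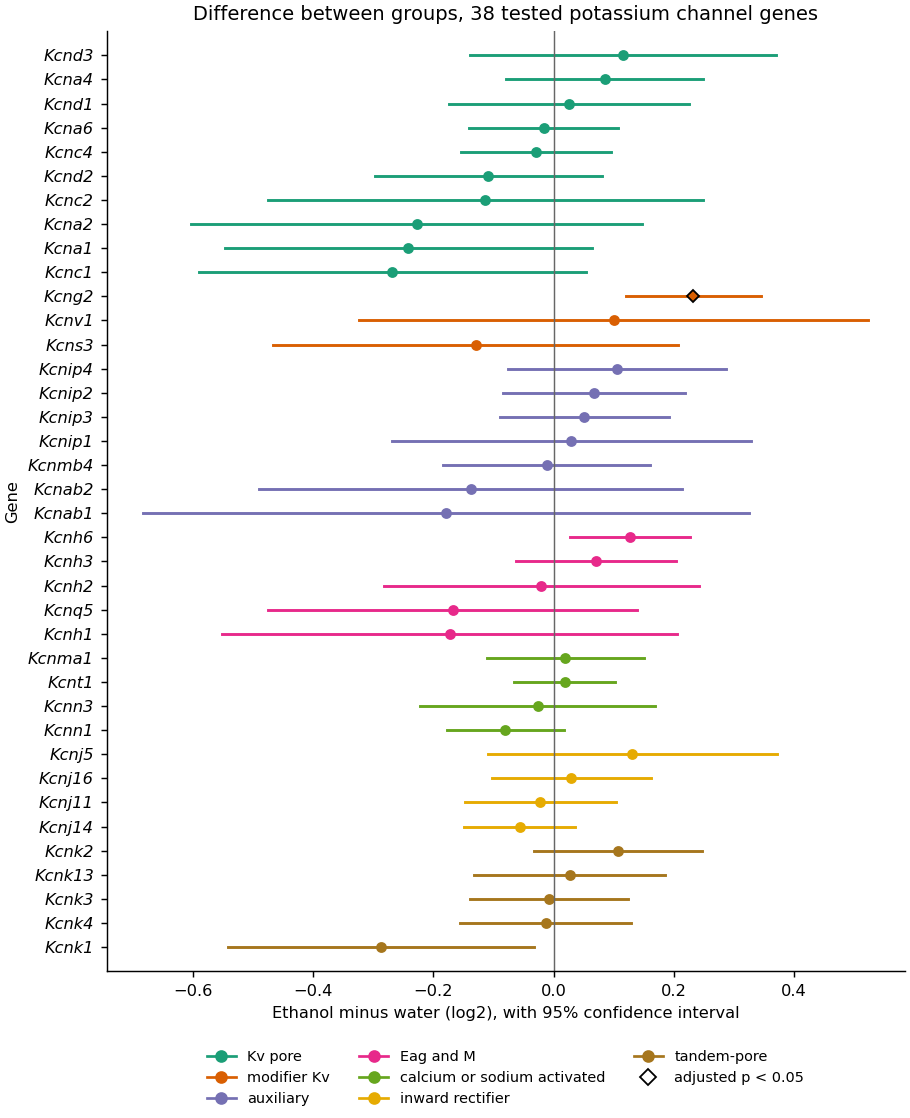
Difference between ethanol and water rats (log2, horizontal axis) for the 38 tested genes, grouped by role; points are limma estimates, lines are 95% confidence intervals, and the diamond marks an adjusted p below 0.05. Kcng2 at 0.23 is the only diamond, and the intervals of Kcnh6 and Kcnk1 also lie on 1 side of 0.

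The tissue held most of the dopamine neuron markers listed for its label. Of 9 such markers 7 were tested, all 7 with higher means in ethanol rats and none called. Pitx3 fell below the filter at 5.91. Th, the rate-limiting enzyme of dopamine synthesis, ran from 14.72 to 15.26 in ethanol rats and from 14.44 to 15.10 in water rats. Some markers of other neurons differed widely among rats. The serotonin neuron marker Slc6a4 ran from 6.14 to 10.70 in ethanol and from 6.35 to 10.96 in water rats. The glutamate neuron marker Slc17a6 ran from 11.15 to 12.76 in ethanol and from 9.98 to 13.31 in water rats. In whole-tissue RNA, fewer cells of a type and less RNA per cell cannot be told apart. Of the other cell types, 4 of 11 microglial markers were called higher and 4 of 10 measured myelin markers lower. Over all tested probe sets 0.929% were called in either direction. The myelin marker Opalin ran the other way, at 0.20 (limma adjusted p = 0.327). The 4 choroid plexus and ependymal markers all fell below the filter. The median correlation of each array with the others ran from 0.988 to 0.993.

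Levels within the family were described by subfamily, as log2 probe set values averaged over the 15 arrays. Probe sets of different genes bind with different strength, so these values say which genes could be tested and do not order their transcripts. All members passed the filter in Kcnc (3 of 3, from 9.03 to 12.59), Kcnd (3 of 3, from 7.64 to 11.84) and Kcnip (4 of 4, from 8.55 to 11.96), and so did the single members Kcnma1 (8.77) and Kcnt1 (8.67). In Kcna 4 of 6 passed (members from 5.14 to 12.23), in Kcnab 2 of 3 (6.16 to 10.92), in Kcnn 2 of 3 (4.80 to 7.39) and in Kcnh 4 of 8 (5.14 to 7.94). Among inward rectifiers 4 of 14 passed (4.54 to 11.28) and among tandem-pore channels 5 of 11 (5.25 to 9.59). A single member passed in each of Kcng (2 members), Kcnmb (2), Kcnv (2), Kcnq (3) and Kcns (3). No Kcne subunit passed, the brightest of 4 being Kcne4 at 6.71. The only Kcnb member, Kcnb2, lay just outside the filter at 6.92, and the lowest tested members, Kcnk4 and Kcnh6, lay just inside it at 7.05.

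**Figure D2:**
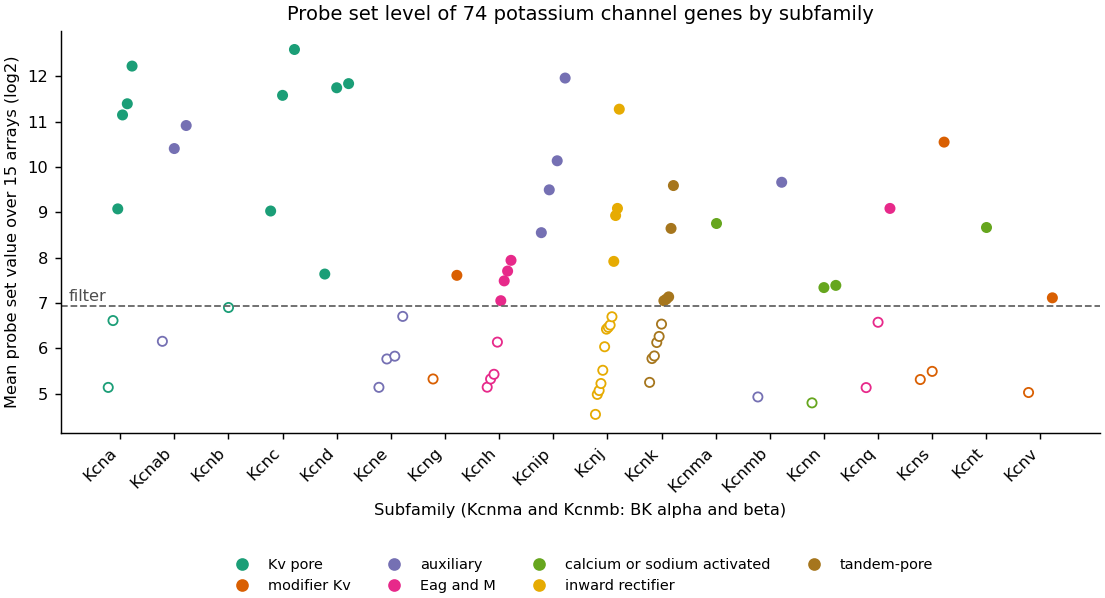
Mean probe set value over the 15 arrays (log2, vertical axis) of the 74 genes by subfamily; filled points passed the filter (dashed line, 6.94) and open points did not. The Kcnc, Kcnd and Kcnip members all lie above the line, while 10 of 14 Kcnj members lie below it.

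The 36 members below the filter included several that are well known in this tissue. The G-protein-gated rectifier subunits Kcnj9 and Kcnj3 had mean values of 5.52 and 6.42, and Kcnj10, the main rectifier of astrocytes, had 5.23, so for these genes the array gives little signal. Kcnj13, a rectifier of choroid plexus, was at 6.70, the M-channel subunit Kcnq3 at 6.58, the acid-sensitive leak channel Kcnk9 at 5.78 and the ERG-type channel Kcnh7 at 5.32. The others were Kcna3, Kcna5, Kcnab3, Kcnb2, Kcne1, Kcne2, Kcne3, Kcne4, Kcng3, Kcnh4, Kcnh5, Kcnh8, Kcnj1, Kcnj2, Kcnj4, Kcnj8, Kcnj12, Kcnj15, Kcnk5, Kcnk6, Kcnk10, Kcnk12, Kcnk15, Kcnmb1, Kcnn4, Kcnq1, Kcns1, Kcns2 and Kcnv2.

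Kcng2 encodes a silent Kv subunit that forms no channel alone and alters Kv2 channels when it joins them. Its log2 values in ethanol rats ran from 7.55 through a median of 7.73 to 7.88, and in water rats from 7.37 through 7.51 to 7.66. Thus 6 of 7 ethanol rats lay above every water rat, and ethanol rat 1, at 7.55, lay inside the water range. The group means were 7.50 ± 0.10 (water; SD, n = 8) and 7.74 ± 0.11 (ethanol; SD, n = 7), so Kcng2 rose 1.18-fold (log2 0.23, SE 0.053, limma adjusted p = 0.0483). An exact permutation test of this gene alone gave p = 0.00124 (two-sided, unadjusted).

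The Kcng2 call was marginal. It ended in 13 of the 15 fits with 1 rat left out, all but those without ethanol rat 1 or water rat 8, with differences from 0.21 to 0.26 and adjusted p up to 0.119. The second tested probe set of Kcng2 differed by 0.052 (SE 0.076, limma adjusted p = 0.822), and the third, below the filter at 5.31, by 0.12 in the fit without a filter (SE 0.061). No other modifier subunit passed. Kcns3, which like Kcng2 is silent alone and joins Kv2, was at log2 -0.13 (SE 0.16), with a range from -0.21 without water rat 5 to -0.033 without water rat 8. Kcnv1 was at 0.10 (SE 0.20).

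Kcnh6, an ERG-type voltage-gated channel, lay in ethanol rats from 6.99 through a median of 7.15 to 7.23, and in water rats from 6.83 through 7.04 to 7.07. Of the 7 ethanol rats, 4 were above every water rat. The difference was 0.13 log2 units (SE 0.047, limma adjusted p = 0.271) and did not pass. The other members of this branch were Kcnh1 (-0.17, SE 0.18), Kcnh2 (-0.020, SE 0.12) and Kcnh3 (0.070, SE 0.063), and Kcnq5, an M-channel pore, was at -0.17 (SE 0.15). Single rats moved these values: Kcnh1 was at -0.058 without water rat 7, Kcnq5 at -0.061 without ethanol rat 1 and Kcnh3 at 0.029 without water rat 4.

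Kcnk1, a tandem-pore leak channel, ran from 8.21 through a median of 8.51 to 8.69 in ethanol rats and from 8.38 through 8.77 to 9.37 in water rats. All 7 ethanol rats lay below the water mean, and 5 of 8 water rats lay above every ethanol rat. The difference of -0.29 log2 units (SE 0.12, limma adjusted p = 0.342) was the largest in size among tested members and did not pass. Kcnk2, a leak channel that lipids and stretch open, was at 0.11 (SE 0.066), with its second tested probe set at 0.14 (SE 0.050, limma adjusted p = 0.262) and 6 of 7 ethanol rats above every water rat. Kcnk3, Kcnk4 and Kcnk13 were at -0.0080, -0.013 and 0.027. Kcnk13, a leak channel of microglia, had an interval from -0.13 to 0.19 in rats whose microglial list had a median difference of 0.32.

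Kcnj8, the pore of the ATP-sensitive channel of pericytes and vascular smooth muscle, had the smallest p of the family in the fit without a filter, but a dim probe set, at a mean of 6.47 and below the filter. Its values ran from 6.51 through a median of 6.65 to 6.93 in ethanol rats and from 6.12 through 6.27 to 6.53 in water rats. Of the 7 ethanol rats, 5 lay above every water rat, and 7 of 8 water rats lay below every ethanol rat. In the fit over 31042 probe sets without a filter the difference was 0.36 log2 units (SE 0.074, limma adjusted p = 0.0383), where 0.448% of probe sets were called, and Kcng2 was then not called (limma adjusted p = 0.0779). At an unadjusted p below 0.05 that fit held 5 of the 74 members, against 9.94% of its probe sets. This Kcnj8 call ended in 10 of 15 fits with 1 rat left out (difference from 0.31 to 0.39, adjusted p up to 0.0822).

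Genes that work with Kcnj8 or mark its cells were measured beside it. Abcc9, the sulfonylurea receptor that pairs with this pore in vessels, was at -0.025 (SE 0.077). None of the 6 endothelial and mural markers was called, with a median difference of 5.24e-05 and a summed log2 level from 12.04 to 12.36 in ethanol and 12.13 to 12.42 in water rats. The pericyte markers Rgs5, Pdgfrb and Vtn were at 0.079, -0.040 and -0.22. The microglial list, with 11 of 11 means higher and a summed log2 level from 14.03 to 14.36 in ethanol and 13.63 to 14.16 in water rats, moved in the same direction as Kcnj8, and its part in the difference was not tested.

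**Figure D3:**
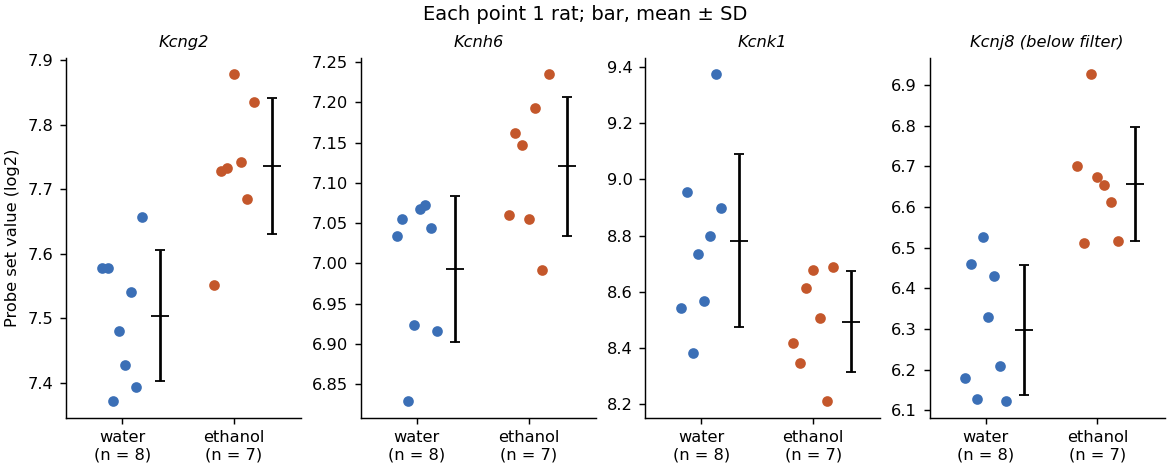
Log2 probe set values of Kcng2, Kcnh6, Kcnk1 and Kcnj8 in each rat (points; 8 water, 7 ethanol), with the mean ± SD as a bar; each panel has its own vertical axis, which does not start at 0. The groups overlap in all 4 genes, with 1 ethanol rat inside the water range for Kcng2.

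None of the tested channels listed here, of dopamine neurons or of the same subfamilies, passed. The G-protein-gated subunits Kcnj9 and Kcnj3 fell below the filter and were not tested. Kcnd3, the A-type pore of these neurons, was at 0.12 (95% interval -0.14 to 0.37), from 0.054 without water rat 7 to 0.19 without water rat 1, and its second tested probe set was at 0.19 (SE 0.10, limma adjusted p = 0.472). The A-type auxiliary subunits Kcnip1, Kcnip2, Kcnip3 and Kcnip4 were all slightly higher in mean, from 0.029 to 0.11, and none passed. The second tested probe set of Kcnip1 had the opposite sign. Kcnn3, the SK channel of dopamine neurons, was at -0.026 (-0.22 to 0.17) and Kcnn1 at -0.080 (-0.18 to 0.017). The G-protein-gated Kcnj5 was at 0.13 (-0.11 to 0.37), and Kcnj11, the ATP-sensitive pore of neurons, at -0.022 (-0.15 to 0.10).

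Of the 10 tested Kv pores 3 had higher and 7 lower means, with a median difference of -0.069, and none passed. The Kv1 pores Kcna1, Kcna2, Kcna4 and Kcna6 were at -0.24, -0.23, 0.085 and -0.016. The Kv3 pores Kcnc1, Kcnc2 and Kcnc4, which end spikes quickly, were at -0.27, -0.11 and -0.029. The other A-type pores Kcnd1 and Kcnd2 were at 0.025 and -0.11, and the Kv1 beta subunits Kcnab1 and Kcnab2 at -0.18 and -0.14. Without water rats 7 and 8, Kcnc2, Kcnab1 and Kcnab2 were slightly higher in ethanol rats (0.039, 0.060 and 0.039).

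Kcnma1, the BK channel pore, was at 0.019 (-0.11 to 0.15), its neuronal subunit Kcnmb4 at -0.012 (-0.18 to 0.16) and the sodium-activated Kcnt1 at 0.018 (-0.066 to 0.10). Kcnj16, an astrocyte rectifier, was at 0.029 (-0.10 to 0.16) and Kcnj14 at -0.056 (-0.15 to 0.036). For 31 of the 38 tested members the whole 95% interval lay within 0.5 log2 units of 0. The 7 with wider reach were Kcna1, Kcna2, Kcnab1, Kcnc1, Kcnh1, Kcnk1 and Kcnv1.

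Of 43 partner genes that act with these channels, 33 were tested and none was called by limma. At an unadjusted p below 0.05 there were 3, all higher: Cntn2, which clusters Kv1 channels beside the node of Ranvier (0.18, limma adjusted p = 0.228), the kappa opioid receptor Oprk1 (0.27, adjusted p = 0.358) and Amigo1, a companion of Kv2 channels (0.099, adjusted p = 0.407). In the same direction and at the same unadjusted p stood 6.67% of all tested probe sets. Of the receptors that open G-protein-gated channels, Drd2 was at 0.20 (SE 0.13), Gabbr1 at -0.0013 and Gabbr2 at 0.013. Oprm1 fell below the filter.

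Members also differed in how far rats of the same group lay apart. The 5 tested members with the widest within-group SD were Kcnab1 (0.51 log2 units), Kcnv1 (0.43), Kcnh1 (0.39), Kcna2 (0.38) and Kcnc2 (0.37). Kcnab1, a beta subunit of Kv1 channels, ran from 9.80 through a median of 10.35 to 10.81 in ethanol rats and from 9.60 through 10.58 to 11.37 in water rats. Kcnc2, a Kv3 pore that lets neurons fire fast, ran from 12.21 through 12.57 to 12.84 and from 11.99 through 12.76 to 13.17. Water rats thus held both the lowest and the highest values of both genes.

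This spread was set beside a list of markers of large, fast-firing neurons: the neurofilaments Nefl, Nefm and Nefh, with Pvalb, Vamp1 and Scn4b (Syt2 fell below the filter). The mean of the 6 ranged from 11.06 to 13.33 in ethanol rats and from 10.85 to 13.78 in water rats, and limma called none of the 6 between the groups (none at an unadjusted p below 0.05 either). The ethanol rats were spread along this range, with no gap wider than 0.58. The 8 water rats fell into 3 low rats (10.85 to 11.36) and 5 high rats (13.07 to 13.78), 1.71 log2 units apart, so no correlation within water rats is given. The relation of each of the 38 tested members to this mean was computed over the 15 rats, a step added after the values had been seen. All points share the arrays on which both quantities were read.

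A Pearson r of at least 0.7 was reached by 10 of 38 members, against 7.17% of all tested probe sets, and an r of -0.7 or below by 2 of 38, against 4.17%. In a limma fit over all tested probe sets with the group in the model, the slope on the list mean was called positive in 11 of 38 members (8.53% of all tested probe sets) and negative in 2 (7.22%). Of the 12 members past 0.7 in size, 9 were also past it among the 7 ethanol rats alone. These 7 rats were among those by which the 12 were picked, so this is no separate check. The 10 positive members were Kcnc2, Kcnab1, Kcna2, Kcnab2, Kcna1, Kcnh2, Kcnc1, Kcnh1, Kcnk4 and Kcnk1. They hold the Kv1 pores of axons, Kcna1 and Kcna2, with their beta subunits, and the Kv3 pores Kcnc1 and Kcnc2.

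Kcnc2 had the closest relation (r = 0.95, rho = 0.96, each with permutation p = 1e-05, the smallest that 100000 permutations can give). Its slope was 0.32 log2 units per unit of the list mean (SE 0.028, limma adjusted p = 1.38e-06). Without the 2 rats farthest from the median of the list (water rat 5 and ethanol rat 7) its r was 0.95, and among ethanol rats it was 0.87. Kcna1 followed the list as well (r = 0.89, rho = 0.91, permutation p = 2e-05 for each; limma adjusted p = 8.10e-06 for the slope), with r = 0.93 without those 2 rats and 0.94 among ethanol rats. Kcnc1 had r = 0.87 and rho = 0.92 (permutation p = 8e-05 and 3e-05; limma adjusted p = 5.26e-05 for the slope), with r = 0.87 without the 2 rats and 0.93 among ethanol rats. Kcnd1 had a called slope (limma adjusted p = 0.0277) but an r of 0.22 among ethanol rats.

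Members of the same subfamily also ran the other way. Kcna6, another Kv1 pore, had r = -0.81 and rho = -0.71 (permutation p = 9e-05 and 0.00394; limma adjusted p = 0.00653 for the slope), with r = -0.76 without the 2 rats and -0.82 among ethanol rats. In RefSeq order on the GRCr8 assembly Kcna6 is the next protein-coding gene after Kcna1, so these neighbours were related to the list with opposite signs. The range of Kcna6 was narrow, from 10.91 to 11.34 over all 15 rats, and its 2 dimmer probe sets, both below the filter, had r of 0.19 and 0.32. Kcna4, an A-type Kv1 pore, had r = -0.71 and rho = -0.78 (permutation p = 0.00384 and 9.8e-04; limma adjusted p = 0.0210 for the slope), with r = -0.79 without the 2 rats. Among ethanol rats the r of Kcna4 was -0.33.

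**Figure D4:**
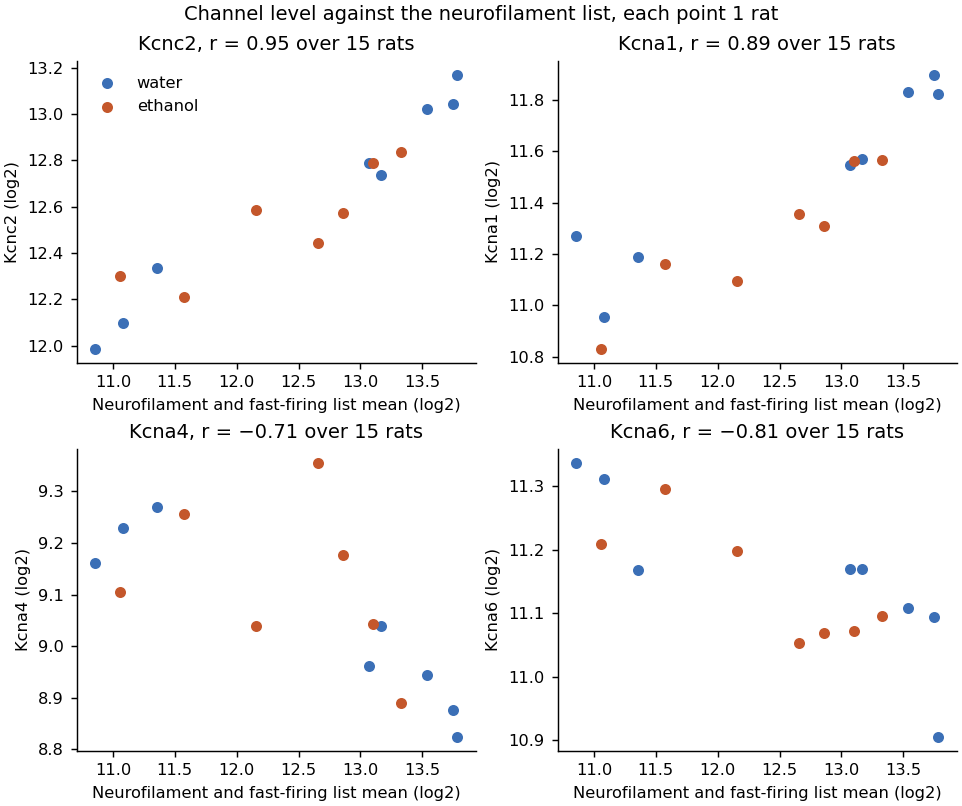
Log2 level of Kcnc2, Kcna1, Kcna4 and Kcna6 (vertical axes, each with its own range) against the mean of the neurofilament list (log2, horizontal axis), each point 1 rat, coloured by group. Kcnc2 and Kcna1 rise along the axis (r = 0.95 and 0.89) while Kcna4 and Kcna6 fall (r = -0.71 and -0.81), and the water rats lie at the low and high ends of the axis.

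**Figure D5:**
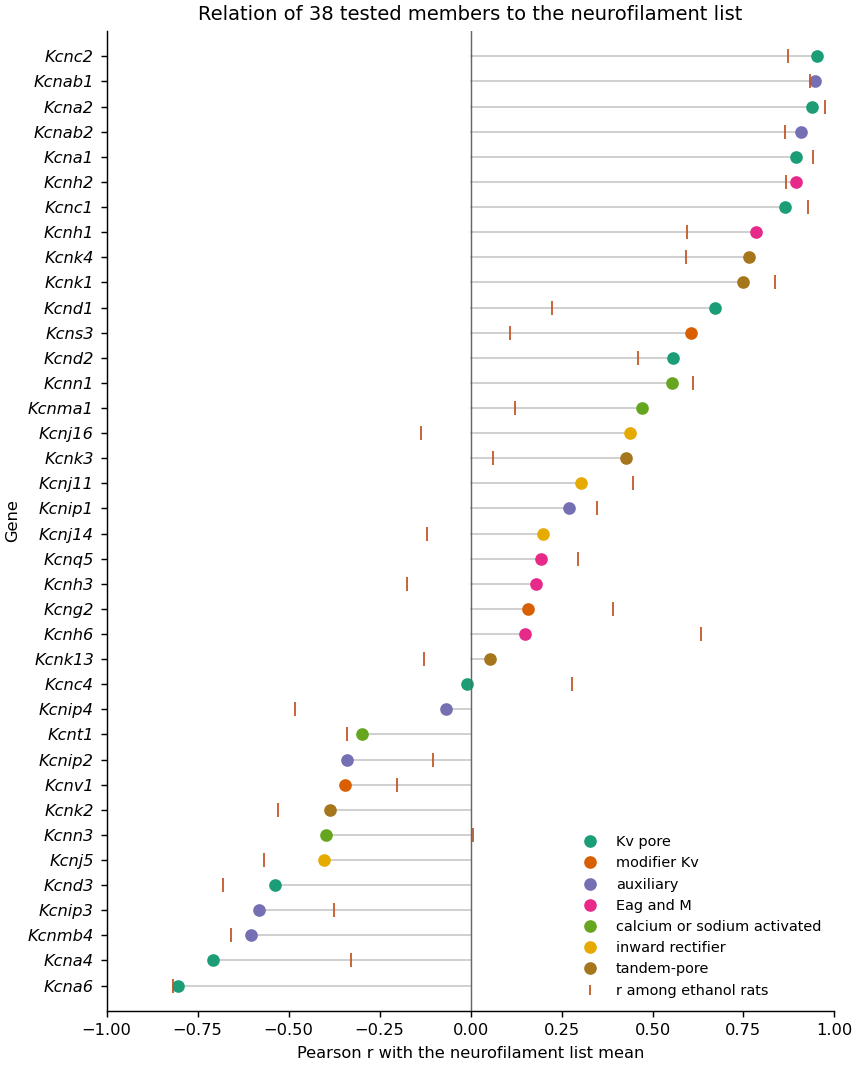
Pearson r of each of the 38 tested members with the neurofilament list mean; points are r over the 15 rats, coloured by role, and ticks are r among the 7 ethanol rats. Kv1 pores stand toward both ends, from Kcna2 at 0.94 to Kcna6 at -0.81, and of the Kv3 pores Kcnc2 and Kcnc1 stand at 0.95 and 0.87 while Kcnc4 stands at -0.0096.

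Because Kv1 pores stood at both ends of this order and 2 Kv3 pores at the positive end, the start-site sequences of 4 of these pores are shown, from 250 bases before to 50 after the annotated start (RefSeq, GRCr8 assembly), 5′ to 3′ on the strand of the gene. Capitals mark the GC box GGGCGG or its reverse complement CCGCCC, searched on both strands with overlapping matches counted. Promoters were matched for 51 of the 74 members.

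Kcna2, chr2:197393280-197393579, plus strand: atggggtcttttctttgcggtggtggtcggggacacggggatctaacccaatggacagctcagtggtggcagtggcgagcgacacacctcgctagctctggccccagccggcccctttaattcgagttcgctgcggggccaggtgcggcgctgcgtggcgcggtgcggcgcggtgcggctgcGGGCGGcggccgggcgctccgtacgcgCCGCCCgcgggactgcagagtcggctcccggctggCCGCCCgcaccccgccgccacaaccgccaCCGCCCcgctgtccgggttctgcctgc

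Kcnc1, chr1:106038997-106039296, plus strand: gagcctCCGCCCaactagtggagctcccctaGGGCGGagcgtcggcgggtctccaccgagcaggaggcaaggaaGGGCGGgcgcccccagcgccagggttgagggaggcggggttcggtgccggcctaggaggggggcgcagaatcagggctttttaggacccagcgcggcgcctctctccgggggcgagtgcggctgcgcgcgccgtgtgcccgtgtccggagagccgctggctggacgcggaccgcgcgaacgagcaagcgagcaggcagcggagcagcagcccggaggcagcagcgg

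Kcna4, chr3:114215086-114215385, plus strand: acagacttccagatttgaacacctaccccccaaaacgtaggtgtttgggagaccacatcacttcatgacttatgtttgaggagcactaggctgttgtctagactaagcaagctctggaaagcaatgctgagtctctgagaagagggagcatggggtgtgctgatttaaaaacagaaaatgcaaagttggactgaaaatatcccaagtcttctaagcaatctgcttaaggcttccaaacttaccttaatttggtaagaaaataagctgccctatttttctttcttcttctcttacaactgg

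Kcna6, chr4:161262303-161262602, minus strand: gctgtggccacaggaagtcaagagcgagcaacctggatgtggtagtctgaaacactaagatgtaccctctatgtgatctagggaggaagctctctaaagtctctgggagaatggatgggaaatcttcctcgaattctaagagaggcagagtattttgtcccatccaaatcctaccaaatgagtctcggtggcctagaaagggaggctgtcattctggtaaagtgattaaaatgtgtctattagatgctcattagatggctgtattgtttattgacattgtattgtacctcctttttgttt

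The promoters of Kcna2 and Kcnc1, whose transcripts followed the list (r = 0.94 and 0.87), held 4 and 3 GC boxes and 40 and 36 CpG dinucleotides. Those of Kcna4 and Kcna6 held 0 GC boxes and 1 and 3 CpG dinucleotides. This contrast did not run through all related members: over the 7 of 10 positive members with a promoter the CpG count ranged from 4 to 40, and 4 of the 7 held a GC box. Kcnc2 and Kcnab1, at the top of the order, had 5 and 9 CpG dinucleotides and 0 GC boxes. A GC box was present in 29 of 51 member promoters, or 56.9%, against 33.1% of all 33469 promoter sequences of that length. A TATA box (TATAAA, both strands) was present in 2 of 51 against 14.2%. Members were counted with 1 promoter per gene, while the full set was neither reduced in that way nor limited to protein-coding genes. The 2 sets are thus unlike, and these shares do not mark a trait of the family. A match is a stretch of letters and not evidence that a factor binds there.

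The difference between ethanol and water rats was also fitted with the neurofilament list mean as a covariate. Without it, Kcnc1 was at -0.27 (SE 0.15), Kcna1 at -0.24 (SE 0.14) and Kcna2 at -0.23 (SE 0.18), none of them called. The list had a median difference of -0.18 with 6 of 6 means lower, where 53.3% of all tested probe sets had higher means. These 6 differences ran from -0.38 (Pvalb) to -0.0058 (Nefl), beside within-group SDs from 0.52 (Vamp1) to 1.45 (Scn4b). All 6 were read in the same rats and are not separate observations. With the list mean as a covariate, Kcnc1 was at -0.22 (SE 0.068), Kcna1 at -0.19 (SE 0.056), Kcna2 at -0.17 (SE 0.055) and Kcnk1 at -0.25 (SE 0.073). These 4 differences were all nearer 0 than without the covariate, where Kcnk1 was at -0.29. Those of Kcnc2, Kcnab1 and Kcnab2, at -0.11, -0.18 and -0.14 without it, also moved nearer 0. They were then at -0.054 (SE 0.057), -0.095 (SE 0.080) and -0.082 (SE 0.074). The number of members at an unadjusted p below 0.05 then rose from 3 to 6. These were Kcnc1, Kcna1, Kcna2 and Kcnk1 with Kcng2 and Kcnh6. Of the 6 Kcng2 alone was called (log2 0.24, limma adjusted p = 0.0277), and the others had limma adjusted p from 0.113 to 0.190. Without water rats 7 and 8, a setting added after the values had been seen, the 3 members at an unadjusted p below 0.05 became 2, Kcng2 and Kcnh6, and Kcnk1 was at -0.17 (limma adjusted p = 0.599). Kcna1, Kcnc1 and Kcna2 were then at -0.13, -0.11 and -0.048.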

How the data were processed

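Total RNA (25 ng per rat, 2 amplification cycles per the labels) was measured on 15 Affymetrix arrays, 7 ethanol and 8 water. The authors deposited log2 values. The submitters' processing notes name RMA and no program or version. This method gives all arrays 1 distribution of intensities and compresses differences of dim probe sets. The table held 31099 probe sets, 57 of them controls, which were left out.

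Symbols came from the GEO platform annotation, and all 122 member probe sets matched RefSeq by Entrez number. The 18625 probe sets at or above the 40th percentile of mean level entered 1 linear model with R 4.3.3 and limma 3.58.1 (functions lmFit and eBayes, two-sided, no covariate, Benjamini-Hochberg adjustment, threshold 0.05), after a check on simulated data. The number of arrays limits the precision. Exact permutation tests used all 6435 divisions of the arrays.

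The members and lists were chosen with earlier results of these data known. Named with values were members at an unadjusted p below 0.05, the brightest and most different member of each subfamily, the 5 widest within-group SDs and a list of dopamine neuron and glial channels; Kcnk5, Kcnq3 and members and genes described by their relation to the neurofilament list were also named after their values were seen. Alternatives were other filters, limma settings, covariates, array centring, probe set averaging, a replicate block and each rat left out. No batch is given in the sources used here.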

Additional observations from a re-analysis of the deposited data

Results flagged for a closer look

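Among the 38 tested members, each group of rats was examined for a single value standing far from the rest, by the gap to the nearest rat over the range of the group. Of 76 groups, 4 held such a value, and chance sets about 1 group in 20 apart. Kcnv1 in water rat 7 was at 5.94, with the next lowest water rat at 7.03. Kcnj11 in ethanol rat 6 was at 9.26, with the next highest at 9.08. Kcnip4 in water rat 5 was at 11.55, with the next lowest at 11.84. Kcnd2 in ethanol rat 4 was at 12.05, with the next highest at 11.71. Without water rat 7 the Kcnv1 difference was -0.062 log2 units, against 0.10 with it, and neither was called.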

How the results depend on the processing

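The call of Kcng2 changed with the settings: the number of members called was 0, against 1, with the filter at the 60th percentile (where Kcng2 is not tested), with trend and robust in eBayes, with arrays centred on their median, with the myelin list mean as covariate, with probe sets averaged per gene and without water rats 7 and 8. Kcng2 kept its call with array weights, the neurofilament list mean or the first principal component as covariate, while without a filter and at the 20th percentile the 1 call was Kcnj8. Members at an unadjusted p below 0.05 numbered 5, against 3, without a filter and at the 20th percentile, 1 at the 60th, 6 with the neurofilament and 10 with the myelin covariate. The myelin covariate also gave 1 called partner and 360 called probe sets, 293 of them higher, against 173 with 72 higher. The myelin list mean itself ran from 13.06 to 13.40 in ethanol and from 13.33 to 13.78 in water rats. This covariate thus carries part of the difference between the groups. With the replicate block there were 0 called members and 59 called probe sets, 19 of them higher, and Kcng2 was at 0.21 (limma adjusted p = 0.169). No label says whether a rat number marks a shared litter, cage or day. The correlation of deviations of same-numbered rats ran from -0.41 to 0.29 over 7 pairs. Its median was 0.13, against 0.0025 over all ethanol-water pairs, and 1 of 7 ethanol rats correlated best with the water rat of its number. So few pairs cannot settle whether the numbers pair the rats. With 1 rat left out, called members ranged from 0 to 1, members at an unadjusted p below 0.05 from 2 to 5 and called probe sets from 100 (without ethanol rat 7; 102 without ethanol rat 8) to 180. Of 745 values of 27 named members under other settings, 43 turned direction, all of them uncalled and in 14 members; the cause was not tested. These were, with array weights, Kcnk3 at 0.0046 and Kcnma1 at -0.0017. With the replicate block they were Kcnj11 at 0.0026, Kcnma1 at -0.00040 and Kcnmb4 at 0.0048. With the neurofilament covariate it was Kcnk3 at 0.0011, and with the myelin covariate Kcnip4 at -0.14, Kcnj16 at -0.10 and Kcnma1 at -0.10. With the first principal component they were Kcnab1 at 0.10, Kcnab2 at 0.056, Kcnc2 at 0.083, Kcnh1 at 0.0030, Kcnj11 at 0.0034, Kcnk3 at 0.025 and Kcnv1 at -0.0046. Without water rats 7 and 8 they were Kcnab1 at 0.060, Kcnab2 at 0.039, Kcnc2 at 0.039, Kcnd3 at -0.0027, Kcnh1 at 0.00029, Kcnip3 at -0.016, Kcnj11 at 0.016, Kcnk3 at 0.029 and Kcnv1 at -0.056. With 1 rat left out, the differences ranged from -0.038 to 0.030 in Kcnk3, -0.049 to 0.042 in Kcnmb4, -0.081 to 0.025 in Kcnn3, -0.052 to 0.014 in Kcnj11, -0.014 to 0.042 in Kcnma1, -0.062 to 0.18 in Kcnv1 and -0.0031 to 0.061 in Kcnj16.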

Other observations

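Below the filter, in the fit over all 31042 probe sets, 23 of 36 members had higher means in ethanol rats. The matching share is known only for probe sets above the filter, at 53.3%. Of the 36, Kcnj8 and Kcnk5 had an unadjusted p below 0.05, as did 9.94% of the 31042 probe sets. Kcnk5, an alkaline-activated leak channel, was at a mean of 5.83 and differed by 0.13 log2 units (limma adjusted p = 0.462). Kcnq3, Kcnh4 and Kcnh5 followed at 0.19, 0.12 and 0.14, none of them called.

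Of 12 member genes with more than 1 tested probe set, the probe sets of 8 agreed in sign. Kcnc2 agreed in all 4 of its tested probe sets, from -0.17 to -0.036 log2 units. Kcnab1, Kcnip1, Kcnj11 and Kcnma1 did not: the 2 probe sets of Kcnab1 were at -0.18 and 0.037, although both followed the neurofilament list (r = 0.95 and 0.84 over 15 rats).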
